A study of Homo sapiens with 18 samples.

Results

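The interaction of neocarzinostatin (NCS) and MI-1061 was measured gene by gene in SJSA-1 cells, a human osteosarcoma line known to carry extra copies of MDM2. For each gene the log2 response to MI-1061 in cells kept with NCS was compared with the log2 response to MI-1061 in cells kept without it, as (NCS and MI-1061 minus NCS) minus (MI-1061 minus DMSO) on log2(value + 1). All 3074 listed genes are members, of 3074 genes in the table as a whole, and 3073 of them reached a normalized count of at least 10 in at least 3 libraries and were tested. A positive value means that MI-1061 raised the gene by a larger factor after NCS than without it, and a negative value means that the factor was smaller.

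Cells were kept with vehicle (DMSO) or NCS at 1 µg/mL for 72 h. DMSO, MI-1061 or MD-224 was added for the final 24 h, both compounds at 1 µM. The 6 groups held 3 libraries each, and the interaction used 12 of the 18 libraries: DMSO throughout, NCS with DMSO, MI-1061 without NCS, and NCS with MI-1061. The 2 groups with MD-224, without and with NCS, entered the same fit and served for the comparison of the compounds. All groups share the line, vehicle and poly(A)-enriched RNA, and nothing in the labels says that replicates were separate cultures, so p-values measure the spread between these libraries, which may be technical.

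MDM2 is a ubiquitin ligase that binds the transcription factor p53 and marks it for degradation, and p53 in turn drives transcription of MDM2. MI-1061 is an inhibitor of the contact between MDM2 and p53, and MD-224 is a degrader of MDM2. NCS breaks DNA, which activates p53 by way of damage kinases. Targets of p53 include inhibitors of the cell cycle, mediators of cell death, DNA repair genes and feedback regulators of p53 itself.

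The listed genes are a selection. Every one had a mean with NCS and MI-1061 at least 1.751-fold that with DMSO (median 2.997-fold), and in 3028 of the 3074 genes all combined libraries lay above all DMSO libraries. These are 2 of the 4 groups of the interaction, so genes that the combination left level or lowered are not analysed here. Listed genes held 4490870 to 21816350 reads per library. Of the 13 osteoblast lineage markers looked for, COL1A2, BMP2, SPP1 and SPARC were listed, at a summed normalized count of 70590 to 88320 in DMSO. None of these 4 had an interaction that passed the test, and the other 9 were not among the listed genes.

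Of the 3073 tested genes, 721 had a positive interaction (23.5%) and 639 a negative one (20.8%) at a Benjamini-Hochberg adjusted p under 0.05 in limma. The median over all tested genes was 0.06 on the log2 scale. The 2 classes differed in how the genes behaved with each agent alone. As deposited, NCS alone raised 1659 genes (54%) and lowered 40 (1.3%), and NCS in cells given MI-1061 raised 1717 (55.9%) and lowered 309 (10.1%). In the positive class MI-1061 alone gave a median of 1.13-fold and NCS alone 1.16-fold, while MI-1061 after NCS gave 2.62-fold. In the negative class MI-1061 alone gave a median of 5.83-fold and MI-1061 after NCS 1.49-fold. These medians describe genes chosen by the same contrast and carry no test. The classes also differed in level: the median of the DMSO means was 859.8 normalized counts for positive genes and 35.54 for negative genes. Without replicate 3 of every group, 365 positive and 284 negative genes were called, and 646 of these 649 were among the calls with all libraries.

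How libraries are scaled moved the single responses far more than the interaction. As deposited, MI-1061 without NCS raised 2076 genes (67.6%) and lowered 137 (4.46%), and MI-1061 after NCS raised 2168 (70.5%) and lowered 23 (0.748%). With TMM scaling over the listed genes these splits became 30.7% and 30.1% without NCS and 23.9% and 19.3% after NCS, and the medians of the responses moved by -0.98 and -0.99. Higher and lower shares for NCS alone became 14.8% and 15.2%, and for NCS in cells given MI-1061 30.3% and 23.7%. Median scaling gave 12.6% and 17.2% for NCS alone and 18.2% and 36% for NCS in cells given MI-1061. Both scalings level the listed genes, which all had higher means with both agents than with DMSO. Part of any shared rise is therefore removed by construction. With TMM scaling the median interaction moved by -0.01, and the calls were 728 positive and 656 negative. Scaling each library to the median listed gene moved the median interaction by -0.29 and the split to 500 positive and 886 negative. No gene called in the deposited scale changed the sign of its interaction under either scaling. Of these 1360 calls, 1344 were still called with TMM scaling and 1139 with median scaling. Folds of single responses below are on the deposited scale.

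**Figure D1:**
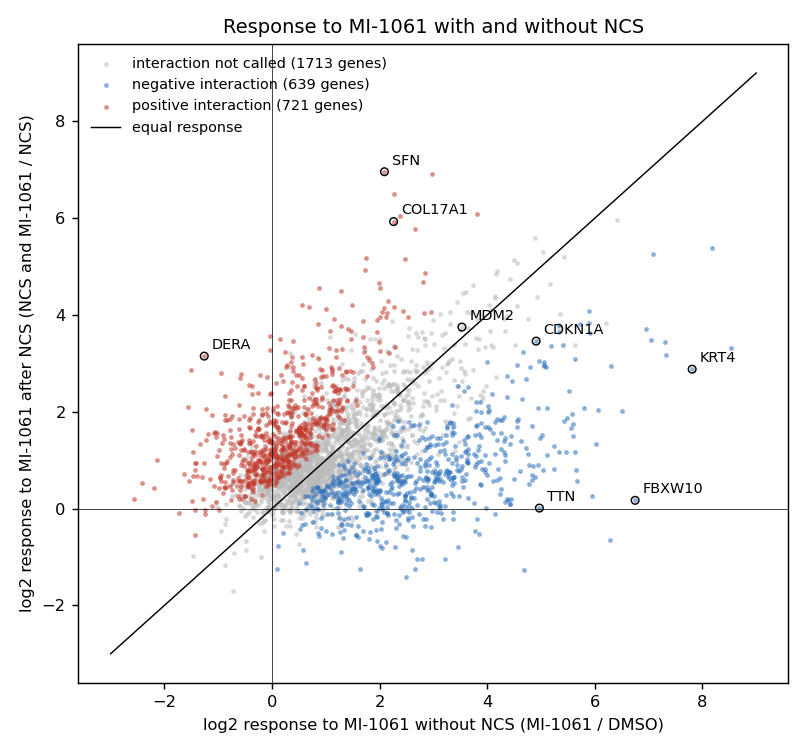
Each point is 1 of 3073 genes, with the log2 response to MI-1061 without NCS on the x axis and after NCS on the y axis; the line marks equal responses. The 721 genes with a positive interaction lie above the line and the 639 with a negative one below it, with SFN at 4.26-fold and 125-fold and FBXW10 at 108-fold and 1.12-fold.

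One shape among the largest positive interactions was a gene that MI-1061 alone raised and that rose to many times that level with both agents. SFN encodes 14-3-3 sigma, a p53 target that holds cells at the G2 checkpoint, and lies at chr1:26863149-26864456 (RefSeq, GRCh38.p14). Its normalized counts were 37.2, 15.4 and 24.6 with DMSO, 15.7, 30.0 and 25.5 with NCS, 59.2, 311.8 and 64.6 with MI-1061, and 1708, 7986 and 1942 with both. All combined libraries were above the other 9 libraries, and NCS alone did not separate from DMSO. MI-1061 raised SFN 4.26-fold without NCS and 125-fold after it, an interaction of 4.87 (SE 1.2, limma adjusted p = 0.00365). Replicate 2 was the highest with MI-1061 and with both, and without replicate 1 of every group the estimate was 4.3 and the call was lost (limma adjusted p = 0.0623).

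AREG encodes amphiregulin, a ligand of the EGF receptor. It stood at 70.0, 50.0 and 28.7 normalized counts with DMSO, 78.5, 93.2 and 93.4 with NCS, 226, 361 and 180 with MI-1061, and 6142, 6873 and 4745 with both. Every library of a single agent was far below the lowest combined library. The response to MI-1061 was 5.18-fold without NCS and 65.7-fold after it, an interaction of 3.67 (SE 0.58, limma adjusted p = 0.000107). COL17A1, a collagen of the hemidesmosomes that anchor epithelial cells, stood at 51.4, 7.69 and 10.2 with DMSO, 80.5, 114 and 93.4 with NCS, 75.9, 161 and 44.6 with MI-1061, and 4392, 11000 and 4113 with both. Its interaction was 3.66 (SE 0.86, limma adjusted p = 0.00261), with DMSO replicate 1 above the other DMSO libraries, and was 2.86 without it. The combined mean was 67.8 times the higher single mean for COL17A1, 26.7 times for SFN and 23.2 times for AREG. TMEM40 (interaction 4.24) and DRAXIN (3.95), an axon guidance factor, had the same shape, with MI-1061 at 4.78- and 7.83-fold without NCS and 90.3- and 121-fold after it. PLCXD2 (3.67) went from 1.83-fold to 23.4-fold.

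The 250 bases before the annotated starts of SFN, AREG and COL17A1 are shown because their levels rose together in the combined group. They are 3 of many such genes. Promoters of NEMP2 (interaction 4.37), TMEM40 (4.24), KRT4 and CDKN1A were searched too and held no match. Those of FBXW10, CEACAM20, GAL3ST1, TTN and IL6 were also searched, held matches and are not shown. Capitals mark matches, on either strand, to an AP-1 element (TGANTCA), a cAMP element (TGACGTCA), a CCAAT box, a TATA box (TATAAA), an interferon element (GAAA, any 2 bases, then GAAA again) or a p53 half-site. An NF-kB element was searched as well and was not found in the sequences shown, while IL6 held one at -73. The sequences are from RefSeq (GRCh38.p14), given 5′ to 3′ on the gene's strand.
SFN, chr1:26862899-26863148, plus strand: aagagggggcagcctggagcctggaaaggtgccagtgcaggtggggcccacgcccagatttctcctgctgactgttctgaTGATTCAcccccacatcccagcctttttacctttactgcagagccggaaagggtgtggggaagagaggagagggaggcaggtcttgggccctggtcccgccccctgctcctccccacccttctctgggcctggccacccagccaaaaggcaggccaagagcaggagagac
AREG, chr4:74444886-74445135, plus strand: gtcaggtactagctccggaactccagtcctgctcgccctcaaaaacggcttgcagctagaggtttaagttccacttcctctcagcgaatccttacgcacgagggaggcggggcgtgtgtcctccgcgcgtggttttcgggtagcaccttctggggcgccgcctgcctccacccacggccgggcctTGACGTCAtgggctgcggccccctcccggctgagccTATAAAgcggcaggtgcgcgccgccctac
COL17A1, chr10:104085881-104086130, minus strand: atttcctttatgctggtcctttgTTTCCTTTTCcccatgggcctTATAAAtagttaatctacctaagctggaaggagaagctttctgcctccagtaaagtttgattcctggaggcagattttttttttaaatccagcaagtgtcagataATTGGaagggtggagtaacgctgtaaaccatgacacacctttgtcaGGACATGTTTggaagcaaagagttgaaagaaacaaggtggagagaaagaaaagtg
SFN held the AP-1 letters at -170 from its start, a match found in 6.6% of all 27305 promoters of the table. AREG held a cAMP element at -65 (1.77% of all promoters) and TATAAA at -29 (11.1%). COL17A1 held a p53 half-site at -55 (5.53%), CCAAT at -101 (33.0%), TATAAA at -206 and an interferon element at -227 (3.07%). No motif was found in all of these promoters. Among the 2274 tested genes whose promoter could be matched, the p53 half-site stood in 4.64% of positive, 4.81% of negative and 6.15% of uncalled genes. TATAAA stood in 7.39%, 13.1% and 7.77% of the same classes. These shares are descriptions without a test.

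A second shape was a gene that either agent alone left below DMSO and the combination raised. All 77 genes whose means with NCS and with MI-1061 were both below the DMSO mean had a positive interaction; since the listing requires a raised combined mean, such genes could hardly fall elsewhere. DERA, an aldolase of deoxyribose phosphate breakdown, stood at 2375, 1860 and 2408 normalized counts with DMSO, 1442, 1264 and 1336 with NCS, 1210, 904 and 709 with MI-1061, and 10940, 13090 and 11900 with both. The 4 groups did not overlap. MI-1061 lowered DERA to 0.418-fold without NCS and raised it 8.87-fold after NCS, an interaction of 4.41 (SE 0.25, limma adjusted p = 2.05e-09). Multiplying the single responses would put DERA at 572.6 with both agents, and adding them at 74.2, against a measured mean of 11980.

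NEMP2, a nuclear envelope protein, followed the same course at 555, 627 and 659 with DMSO, 277, 253 and 220 with NCS, 230, 208 and 206 with MI-1061, and 1999, 1813 and 1631 with both. Its interaction was 4.37 (SE 0.24, limma adjusted p = 2.05e-09). AMOTL1, an angiomotin of cell junctions, was far more abundant and changed less, from 6065, 5110 and 6233 with DMSO to 4153, 3831 and 4286 with NCS, 3742, 4492 and 4676 with MI-1061, and 22930, 25960 and 22960 with both. Its interaction was 2.98 (SE 0.17, limma adjusted p = 2.05e-09), and in both genes every single-agent library was below every DMSO library. DNAJC18, a co-chaperone of the HSP40 family, differed in that NCS alone did not lower it: 985, 1032 and 1222 with DMSO, 1223, 1253 and 1355 with NCS, 356, 365 and 426 with MI-1061, and 3221, 5585 and 3440 with both (interaction 3.13, SE 0.25). KCTD12 (interaction 3.75), TMEM255A (3.65) and SCD5 (2.63), a stearoyl-CoA desaturase, were likewise lowered by MI-1061 alone, to 0.522-, 0.34- and 0.43-fold, and raised by it after NCS, 7.01-, 4.27- and 2.67-fold.

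Across the positive class, 123 of 721 genes (17.1%) were lowered by MI-1061 alone, against 4.46% of all tested genes. In 91 of them MI-1061 raised the gene after NCS, so that the direction of the response turned. The number of genes that turned was 123 with TMM scaling and 65 with median scaling. A further 332 were called higher only after NCS, and 261 rose in both settings. In 697 genes (96.7%) every combined library lay above all 9 others, against 51.6% of all tested genes. The contrast that chose the class favours high combined libraries and low MI-1061 libraries, so these shares describe it and support nothing. The interaction was at least 1 on the log2 scale in 471 genes and at least 2 in 130.

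**Figure D2:**
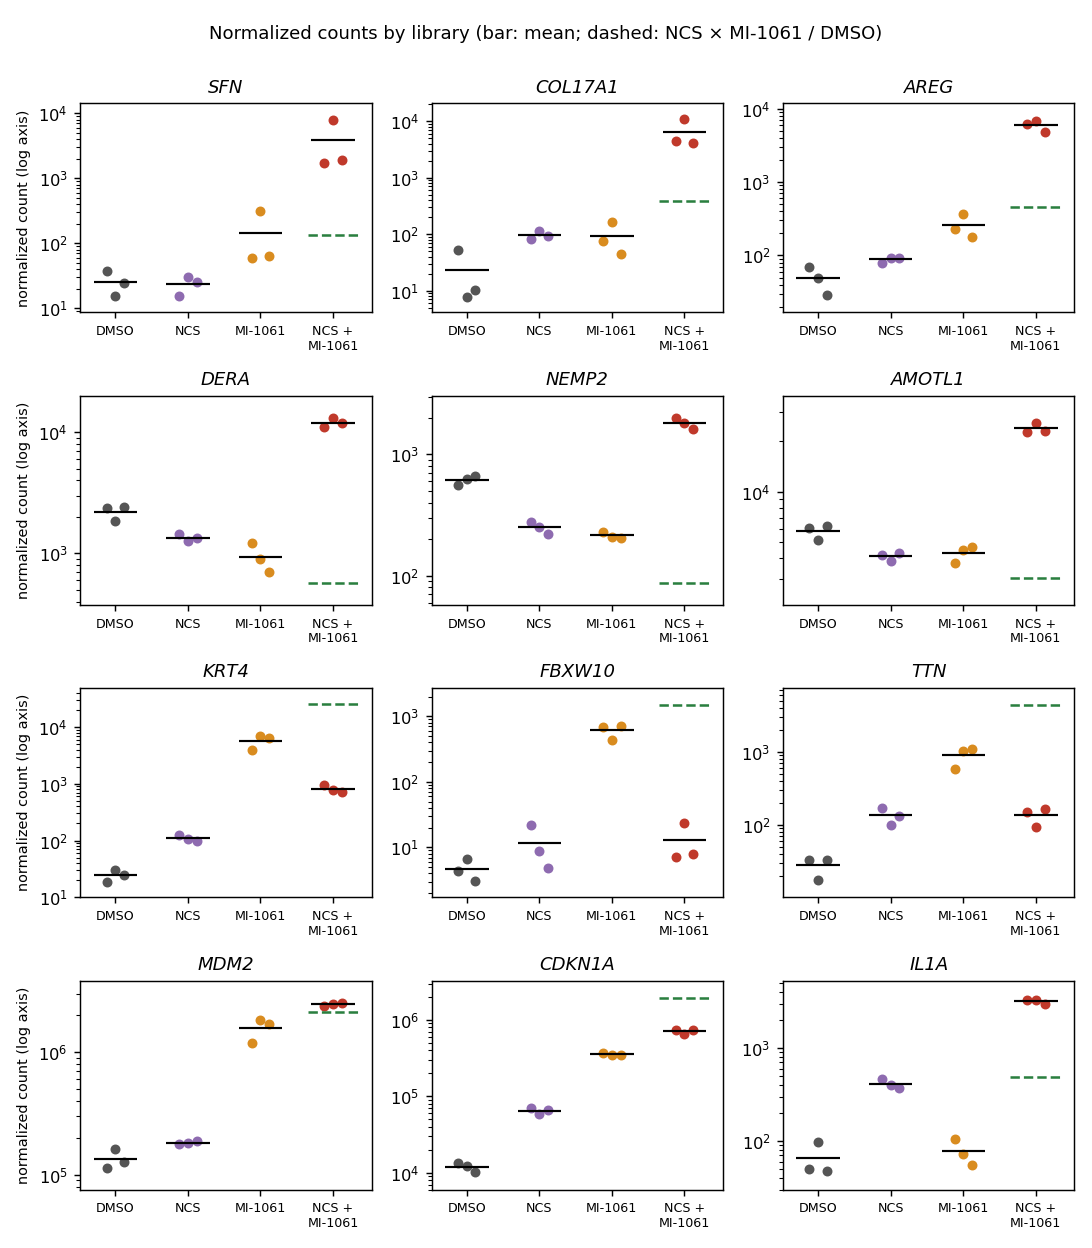
Normalized counts (log axes) of 12 genes in the 12 libraries; points are libraries, bars group means, and dashed lines the value expected if the single responses multiplied. SFN, COL17A1, AREG, DERA, NEMP2, AMOTL1 and IL1A lie above that value with both agents, KRT4, FBXW10, TTN and CDKN1A below it, and MDM2 close to it.

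In negative interactions MI-1061 raised the gene by a larger factor without NCS than after it. Over the 639 genes NCS gave a median of 0.665-fold in cells given MI-1061 and 2.32-fold in cells without a compound, so that a smaller factor came with a higher level under NCS alone as well as with a lower level under both. In FBXW10, CEACAM20, KRT4 and TTN most of the rise with MI-1061 was absent from the combined group. FBXW10, an F-box protein, stood at 4.38, 6.73 and 3.07 normalized counts with DMSO, 21.6, 8.69 and 4.85 with NCS, 682, 428 and 716 with MI-1061, and 7.14, 23.7 and 8.0 with both. The MI-1061 libraries stood alone, and the combined libraries overlapped with those of NCS. MI-1061 raised FBXW10 108-fold without NCS and gave 1.12-fold after it, which did not pass the test, and the interaction was -6.58 (SE 0.73, limma adjusted p = 4.54e-06). CEACAM20, a cell adhesion molecule, had the lowest estimate, -6.94 (SE 0.61), at 187, 243 and 295 with MI-1061 and 9.52, 6.33 and 10.7 with both. DMSO levels of CEACAM20 were 1.92 to 2.19, so its estimate depends on the pseudocount and was -5.6 with a pseudocount of 5.

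KRT4 and KRT78 are keratins of stratified epithelium and were among the most raised genes with MI-1061. KRT4 stood at 18.6, 29.8 and 24.6 with DMSO, 124, 104 and 99.4 with NCS, 3915, 7033 and 6392 with MI-1061, and 938, 774 and 716 with both. Unlike FBXW10 it was still raised in the combined group, 7.34-fold over NCS alone against 225-fold without NCS, an interaction of -4.94 (SE 0.40, limma adjusted p = 3.01e-07). KRT78 went from 369-fold to 9.91-fold (interaction -5.22, SE 0.57). TTN, the giant sarcomere protein titin, stood at 32.8, 17.3 and 32.7 with DMSO, 171, 97.9 and 133 with NCS, 574, 1011 and 1104 with MI-1061, and 151, 91.7 and 163 with both. The combined libraries overlapped with those of NCS alone, and the interaction was -4.96 (SE 0.53, limma adjusted p = 3.11e-06). ASB5 (-5.94), ZNF366 (-5.70), GAL3ST1 (-5.12), LGR6 (-4.85) and SEZ6 (-4.69) completed the 10 largest, with 25.6- to 65.3-fold for MI-1061 alone. CYP26B1, which clears retinoic acid, went from 21.5-fold to 1.07-fold (-4.33).

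Among abundant genes the clearest falls were smaller. TSPAN31, a tetraspanin, stood at 7864, 9668 and 8504 with DMSO, 15530, 17360 and 17850 with NCS, 33740, 41600 and 38800 with MI-1061, and 14840, 16930 and 16010 with both. Here MI-1061 raised the gene 4.38-fold without NCS and gave 0.942-fold after it, an interaction of -2.22 (SE 0.15, limma adjusted p = 2.76e-08), and libraries with both agents overlapped with those of NCS alone. Of the 639 negative genes, 633 (99.1%) were raised by MI-1061 alone, against 67.6% of all tested genes. After NCS 338 of these (52.9% of the class) were no longer called, against 17.3% of all tested genes. Another 284 (44.4%) were still raised, against 49.9%, and 11 were lowered. With TMM scaling 523 genes had a negative interaction and a rise with MI-1061 alone, 86 of them lowered by it after NCS. With median scaling these counts were 571 and 172. In 343 genes (53.7%) every combined library lay below every MI-1061 library, against 12.9% of all tested genes, and 286 (44.8%) were lowered by NCS in cells given MI-1061, against 10.1%. Another 45 (7.04%) were raised by NCS in cells given MI-1061, and in 34 (5.32%) every combined library lay above all 9 others. The contrast that chose the class favours low combined libraries and high MI-1061 libraries, so these shares describe it and support nothing. In bulk RNA, fewer cells with a transcript and less transcript per cell cannot be told apart.

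The place of the combined mean depended on the scale. On linear means 1573 genes (51.2%) lay above both the sum and the product expected from the single agents, 861 (28%) lay below the higher single agent, 337 (11%) lay between the 2 expectations and 302 above both single agents but below both expectations. With TMM scaling 841 lay above both expectations and 2132 below the higher single agent. That scaling levels the listed genes, all of which had higher means with both agents than with DMSO, so part of this shift is built in.

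MDM2 and CDKN1A, the best known targets of p53, were not in the positive class. MDM2 stood at 114700, 163900 and 126600 normalized counts with DMSO, 177200, 180900 and 188900 with NCS, 1190000, 1828000 and 1699000 with MI-1061, and 2374000, 2485000 and 2521000 with both. Its combined libraries were the highest, and the response to MI-1061 was 11.6-fold without NCS and 13.5-fold after it. The interaction of 0.22 (95% interval -0.28 to 0.72, limma adjusted p = 0.476) did not pass the test. CDKN1A, the cyclin-dependent kinase inhibitor p21, stood at 13250, 12140 and 10130 with DMSO, 69420, 58900 and 65380 with NCS, 365100, 349900 and 349100 with MI-1061, and 748500, 651400 and 737900 with both. It was highest with both agents, yet the factor fell from 30.1-fold to 11-fold, an interaction of -1.45 (SE 0.22, limma adjusted p = 6.98e-05). Both agents together gave 2.01 times the MI-1061 mean, above the sum of the single effects (407400) and below their product (1934000).

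Counts in the gene lists stand beside 23.5% positive and 20.8% negative over all tested genes. Of the 4 genes listed under MDM2 and p53 feedback, TP53INP1 (-0.92) was negative, while MDM2, PPM1D (-0.23) and AEN (-0.41) did not pass the test. AEN, a nuclease, passed it with TMM scaling (limma adjusted p = 0.0382), with median scaling (-0.70, limma adjusted p = 0.00101), and without DMSO replicate 1 (limma adjusted p = 0.034) or MI-1061 replicate 1 (limma adjusted p = 0.0427). The 10 listed genes of p53-dependent arrest split, with SFN and E2F7 positive and PTCHD4, CDKN1A, PLK2 and TOB1 negative (list median -0.22). E2F7, a repressor of cell-cycle genes, stood at 7304, 7257 and 6029 with DMSO, 3846, 2712 and 2822 with NCS, 7234, 9908 and 9221 with MI-1061, and 18970, 16430 and 15330 with both. NCS alone lowered it to 0.452-fold and NCS with MI-1061 raised it 1.93-fold over MI-1061, an interaction of 2.10 (SE 0.24, limma adjusted p = 6.92e-06). PTCHD4, a Patched-related membrane protein, went from 30.6-fold with MI-1061 alone to 4.24-fold after NCS.

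The cell death genes were also divided, with 5 positive and 5 negative of 17 and a list median of 0.02. TP53I3, an oxidoreductase induced by p53, stood at 961, 1249 and 1084 with DMSO, 1593, 1894 and 1667 with NCS, 6197, 10200 and 7556 with MI-1061, and 45910, 55710 and 49610 with both. Its combined libraries were all above the rest, and the interaction was 2.03 (SE 0.38, limma adjusted p = 0.000404). PMAIP1, the BH3 protein NOXA, was positive at 1.25, as were CASP10 (1.46), CASP1 (0.84) and PERP (0.49). The death receptor gene TNFRSF10A stood at 467, 301 and 407 with MI-1061 and at 98.8, 32.4 and 69.3 with both, an interaction of -3.54 (SE 0.84, limma adjusted p = 0.00278), and TNFRSF10D (-1.60), BBC3 (-1.14), TNFRSF10B (-0.54) and ZMAT3 (-0.52) were negative too. Without replicate 3 of every group 2 positive and 0 negative calls of this list were left, and TNFRSF10A had a limma adjusted p of 0.0521. Leaving out any 1 of DMSO replicate 3, NCS replicates 1, 2 and 3, MI-1061 replicate 3 and combined replicates 2 and 3 left 3 negative calls, and leaving out replicate 1 of every group 2. Median scaling gave 3 positive and 8 negative calls.

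Of 15 p53 targets listed under DNA repair and nucleotide supply, 5 were positive and 0 negative. The list also holds genes of other roles. RAD51C (1.28) of homologous recombination and the translesion polymerase gene POLH (1.27) were the repair genes among the 5. The others were GLS2 (1.85), a glutaminase, APAF1 (1.65), the apoptosome scaffold, and KITLG (1.26), a growth factor. XPC (-0.53), DDB2 (-0.16), ERCC5 (0.23) and RRM2B (0.01), core repair and nucleotide genes, did not pass the test. Without replicate 3 of every group 1 of the 5 was called, and APAF1 (limma adjusted p = 0.051), POLH (0.0594) and GLS2 (0.0982) were lost. GLS2 was also lost without replicate 1 of every group (limma adjusted p = 0.0725), and this list had 5 negative calls with median scaling and 2 without DMSO replicate 2 or without MI-1061 replicate 1.

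**Figure D3:**
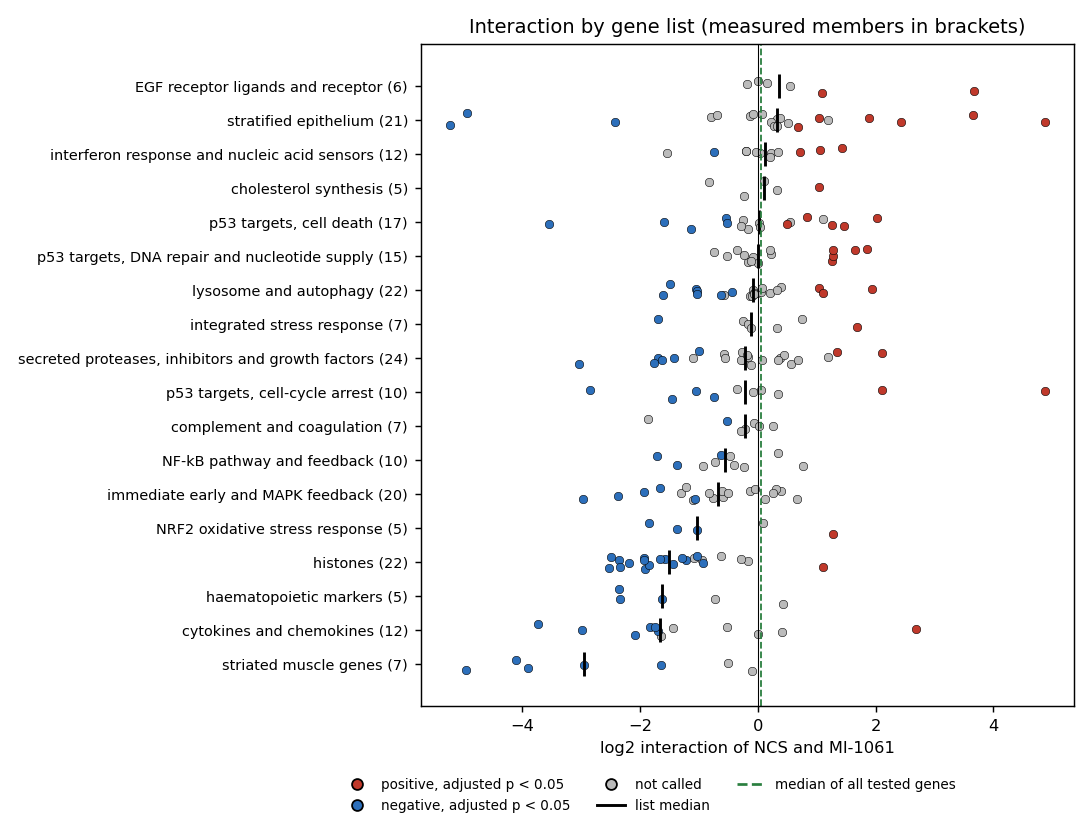
Log2 interaction of each measured gene in 18 gene lists with at least 5 measured members, ordered by list median; black bars are list medians and the dashed line is the median of all tested genes, 0.06. Histones (median -1.51), cytokines (-1.67) and striated muscle genes (-2.96) lie mostly to the left, while p53 target lists lie on both sides of 0.

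Histone genes formed the largest one-sided list: 16 of 22 were negative and 1 positive, with a median of -1.51 against 0.06 over all tested genes. HIST1H4H stood at 58.0, 52.9 and 69.6 with DMSO, 388, 530 and 509 with NCS, 374, 317 and 254 with MI-1061, and 433, 378 and 477 with both. Each agent alone lifted it above every DMSO library, and the combined libraries overlapped with those of NCS. MI-1061 raised it 5.13-fold without NCS and gave 0.908-fold after it, an interaction of -2.50 (SE 0.28, limma adjusted p = 6.41e-06). HIST1H2BK went from 2.90-fold to 1.24-fold (interaction -1.22, SE 0.16), and HIST1H2BJ was the positive member (1.10). NCS alone raised 21 of the 22 genes and MI-1061 alone 19, while MI-1061 after NCS raised 5. Over all tested genes these shares were 54%, 67.6% and 70.5%, all on the deposited scale. Histone genes are near-identical copies between which reads may be divided, and replication-dependent histone transcripts end without a poly(A) tail, which the library preparation selects for. Without replicate 2 of every group 10 were negative and without replicate 3 it was 4.

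Inflammatory genes held calls in both directions, and many did not pass the test. Of 12 listed cytokines and chemokines, IL1A was positive and 6 were negative: IL6 (-3.73), CXCL8 (-2.99), CCL26 (-2.09), CSF1 (-1.83), TNFSF9 (-1.75) and GDF15 (-1.69). The other 5, CXCL3 (0.41), TGFA (0.01), IL1B (-0.53), TNFSF15 (-1.44) and CXCL1 (-1.65), did not pass the test. IL1A, interleukin-1 alpha, stood at 50.3, 97.1 and 48.1 with DMSO, 467, 397 and 367 with NCS, 106, 72.0 and 55.3 with MI-1061, and 3287, 3268 and 2980 with both. MI-1061 alone did not separate it from DMSO and raised it 7.76-fold in cells with NCS, an interaction of 2.68 (SE 0.40, limma adjusted p = 5.78e-05). CSF1, a macrophage growth factor, stood at 6240, 8680 and 9770 with DMSO, 13380, 12450 and 13470 with NCS, 30780, 37460 and 46710 with MI-1061, and 17640, 17360 and 16690 with both. All its combined libraries were below all MI-1061 libraries (interaction -1.83, SE 0.23, limma adjusted p = 1.77e-05). IL6 was raised 6.47-fold by MI-1061 alone and stood at 0.487-fold after NCS, which did not pass the test, and it is named here after its values were seen.

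The NF-kB list had 3 negative genes of 10 and none positive: ICAM1 (-1.72), SQSTM1 (-1.38), a cargo receptor of autophagy, and TNIP1 (-0.63). Without MI-1061 replicate 1, or with median scaling, 7 of the 10 were negative, without DMSO replicate 2 it was 5, and without replicate 3 of every group 1. Of 20 immediate early and MAPK feedback genes 5 were negative, a share near the 20.8% of all tested genes, and 0 positive: FOSB (-2.97), EGR3 (-2.38), NR4A3 (-1.93), JUNB (-1.66) and MAFF (-1.06). FOSB, a partner of JUN proteins in AP-1, stood at 196, 249 and 212 with DMSO, 438, 421 and 353 with NCS, 2319, 1855 and 3736 with MI-1061, and 609, 651 and 522 with both. Combined libraries lay between those of NCS and MI-1061 without overlap, and the response fell from 11.5-fold to 1.47-fold (SE of the interaction 0.30, limma adjusted p = 1.82e-06). The count of negative genes in this list was 8 with median scaling or without replicate 1 of every group, and 1 without replicate 3.

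The promoter of FOSB is shown beside that of DERA because their interactions had opposite signs and both also parted the compounds, as given below, with the same marks as above.
FOSB, chr19:45467746-45467995, plus strand: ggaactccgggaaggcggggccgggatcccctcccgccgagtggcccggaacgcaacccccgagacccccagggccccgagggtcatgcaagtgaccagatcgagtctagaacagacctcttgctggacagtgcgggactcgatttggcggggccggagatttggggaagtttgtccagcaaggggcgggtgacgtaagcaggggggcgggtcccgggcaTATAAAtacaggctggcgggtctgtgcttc
DERA, chr12:15911082-15911331, plus strand: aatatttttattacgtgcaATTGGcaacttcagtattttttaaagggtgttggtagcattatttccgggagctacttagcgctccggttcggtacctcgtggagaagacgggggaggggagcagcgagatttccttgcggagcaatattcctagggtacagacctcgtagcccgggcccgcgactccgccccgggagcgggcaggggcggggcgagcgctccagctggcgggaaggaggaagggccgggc
FOSB held TATAAA at -30 and none of the other motifs searched, and DERA held a CCAAT match at -231 on the other strand.

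Genes of the interferon response and of nucleic acid sensing, which the series title bears on, had 3 positive and 1 negative member of 12 (median 0.11), beside 23.5% positive and 20.8% negative over all tested genes. The positive share is near that of all genes. NLRP1, an inflammasome sensor, stood at 758, 658 and 717 with DMSO, 1591, 1512 and 1679 with NCS, 1497, 1542 and 1572 with MI-1061, and 9923, 9037 and 8916 with both. Each agent alone raised it and the combined libraries stood above all others, an interaction of 1.43 (SE 0.17, limma adjusted p = 8.25e-06). APOBEC3C (1.05), a cytidine deaminase, was positive and TRIM22 (-0.75) negative, the latter not without replicate 3 of every group (limma adjusted p = 0.0817). ISG15, a ubiquitin-like protein induced by interferon, stood at 815 to 1189 with DMSO, 1298 to 2017 with NCS, 978 to 1627 with MI-1061 and 1763 to 3552 with both. In the order DMSO, MI-1061, NCS and both, each group overlapped with the next. MI-1061 gave 1.28-fold without NCS, which did not pass the test, and 1.49-fold after it, and the interaction of 0.22 (95% interval -0.54 to 0.97) did not pass the test. Of 4 listed genes of the RNA polymerase III machinery, GTF3C6, a subunit of TFIIIC, was positive at 0.95 (SE 0.21, limma adjusted p = 0.00178), and BRF2 (0.54), SNAPC5 (0.07) and SNAPC1 (-0.25) did not pass the test. GTF3C6 stood at 2351, 2087 and 2060 with DMSO, 2238, 1965 and 2037 with NCS, 2962, 2057 and 2021 with MI-1061, and 4380, 4043 and 4403 with both, above every other library. It lost its call without replicate 3 of every group (limma adjusted p = 0.0794). In the MHC class I list ERAP2 (0.78) was positive and HLA-B (-0.62) negative, and HLA-C (-0.75) did not pass the test. HLA genes are near-identical and may share reads, and the HLA-B call was lost without DMSO replicate 2, NCS replicate 3 or MI-1061 replicate 3.

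The stratified epithelium list spanned the whole range, with 6 positive and 3 negative genes of 21 and a median of 0.33. SFN, COL17A1, DSP (2.43), CSTA (1.89), DSC3 (1.04) and CLDN1 (0.68) were positive, and KRT78 and KRT4 were among the negative. DSP, which encodes desmoplakin of the desmosomes, stood at 2212, 2994 and 2921 with DMSO, 5044, 5641 and 6316 with NCS, 1519, 3053 and 1958 with MI-1061, and 22680, 22640 and 25860 with both. MI-1061 alone did not separate it from DMSO, while the combined libraries stood apart (SE of the interaction 0.30, limma adjusted p = 1.38e-05).

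Some markers of other cell types were in the negative class. The 7 listed striated muscle genes of 24 looked for had 5 negative members, TTN, RYR1 (-4.11), MYPN (-3.91), XIRP2 (-2.96) and XIRP1 (-1.64). RYR1, the calcium release channel of muscle, stood at 792, 1488 and 1532 with MI-1061 and 127, 85.4 and 84.0 with both. Summed over the 7 genes, libraries held 368.3 to 602.6 normalized counts with DMSO, 1310 to 1480 with NCS, 2723 to 4176 with MI-1061 and 1106 to 1392 with both. The 2 endothelial markers listed of 8, VWF (-4.22) and KDR (-1.59), were negative and summed to 1943 to 3235 with MI-1061 and 338.5 to 474.9 with both. Of the 5 haematopoietic markers listed of 15, ITGAM (-2.36), CD163 (-2.34) and LAPTM5 (-1.62) were negative. CD68 (0.43) and TREM1 (-0.72) did not pass the test. Over all 5, sums were 446.1 to 1124 with DMSO and 2461 to 2646 with NCS. They were 2576 to 3107 with MI-1061 and 5258 to 5403 with both. CD68 alone had means of 620.3, 2032, 661.5 and 3104 in the same order. No listed marker was at 0 in any library, and the defining genes PTPRC, PECAM1, MYOD1, MYOG, EPCAM and KRT5 were not among the listed genes. Whether other cells took part in these results was not tested. Without replicate 3 of every group none of the 3 haematopoietic genes and 1 of the 2 endothelial genes was called.

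Several other lists held calls on both sides. Of 22 lysosome and autophagy genes 3 were positive, with ATG16L2 (1.93) first, TFEB (1.11) and ATG4A (1.04), and 7 negative. MAP1LC3B, which marks autophagosomes, stood at 5300, 4565 and 4846 with DMSO, 9759, 9174 and 10090 with NCS, 17260, 20060 and 20220 with MI-1061, and 12190, 12260 and 12750 with both. Combined libraries lay between the single agents without overlap, an interaction of -1.61 (SE 0.13, limma adjusted p = 3.45e-07), and its near-identical copy MAP1LC3B2 (-1.50) may share its reads. CTSB (-1.03), a cathepsin, and the cholesterol transporter gene NPC1 (-1.04) were negative as well. Of 24 secreted proteases, inhibitors and growth factors 2 were positive, with TIMP3 at 2.10, and 6 negative, among them TIMP1 (-1.0). Without replicate 2 or replicate 3 of every group 1 of those 6 was called.

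Of 5 NRF2 targets SRXN1 (-1.38), AKR1B10 (-1.84) and OSGIN1 (-1.03) were negative and AKR1C1 (1.28) positive, and without replicate 3 of every group 1 negative call was left. Of the 7 integrated stress response genes PSAT1 (1.68), of serine synthesis, was positive and GDF15 negative. GDF15 lost its call without any 1 of 8 single libraries and with edgeR or DESeq2. Of the 6 listed genes of the EGF receptor family and its ligands AREG and NRG1 (1.09) were positive, the latter not without any 1 of 8 single libraries. HSD17B7 (1.03) was the positive gene of 5 of cholesterol synthesis, C1S (-0.53) the negative one of 7 of complement and coagulation, and CDKN2B (-0.59) the negative one of 2 cell-cycle genes, and each of these calls was lost in some of the leave-outs.

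The same interaction with MD-224 had fewer calls, 125 positive (4.07%) and 221 negative (7.19%). Its balance turned with the scaling, to 201 positive and 127 negative with TMM and 147 and 178 with median scaling. Both interactions share the DMSO and NCS libraries, so their difference was tested directly as the effect of NCS in cells given MI-1061 minus that in cells given MD-224, in which those libraries drop out. Of 3073 genes 761 (24.8%) were higher and 435 (14.2%) lower in this difference at a limma adjusted p under 0.05. Without replicate 3 of every group 356 of 3073 were called, TMM scaling gave 594 higher and 538 lower, and median scaling 433 and 694. Doses (1 µM) and times (24 h) were matched, but responses to the compounds alone were not equal. Mean MDM2 was 135100 with DMSO, 407800 with MD-224 and 1572000 with MI-1061, and mean CDKN1A 11840, 90720 and 354700. In this order the median of the group means was 35.54, 72.52 and 313.5 over the 639 negative genes. Over the 721 positive genes it was 859.8, 1023 and 906.1. Whether unequal responses to the compounds alone account for the difference was not tested. Of the 721 positive genes 536 (74.3%) were higher in the difference, and of the 639 negative genes 352 (55.1%) were lower, but both contrasts hold the combined and MI-1061 libraries, so these shares are no independent support.

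DERA and DNAJC18 led the genes that parted the compounds. With MD-224, DERA stood at 1526, 1513 and 1347 without NCS and 2635, 2057 and 1789 with it. NCS raised it 13-fold in cells given MI-1061 and 1.46-fold in cells given MD-224, a difference of 3.15 (SE 0.25, limma adjusted p = 5.53e-07). DNAJC18 stood at 1464, 1284 and 1552 with MD-224 and 1155, 1368 and 1111 with NCS and MD-224. It rose 10.4-fold with NCS under MI-1061 and gave 0.844-fold under MD-224, a difference of 3.62 (SE 0.25, limma adjusted p = 1.47e-07). SCD5 (2.55), CALCOCO1 (2.06), an autophagy receptor, and AMOTL1 (1.92) followed. In the other direction TTN (-5.16), ARC (-4.08), an immediate early gene, FOSB (-3.01) and TSPAN31 (-1.22) were lower. Means with MD-224 alone were near those with DMSO for TTN (30.74 against 27.62) and FOSB (215.6 against 218.9). ARC stood at 25.2, 34.8 and 14.7 with MD-224 and 463, 300 and 528 with NCS and MD-224, a 17.1-fold rise, against 1.01-fold for NCS in cells given MI-1061.

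SFN, AREG and COL17A1 did not pass the test of the difference. SFN stood at 13.8, 34.8 and 2.09 with MD-224 and 232, 347 and 58.7 with NCS and MD-224, and the difference was 0.95 (95% interval -1.58 to 3.49, limma adjusted p = 0.553). For AREG it was 0.85 (-0.37 to 2.08) and for COL17A1 0.81 (-1.01 to 2.63). All of these intervals reach past 2 on the log2 scale, so these data do not show that the compounds acted alike on them. MDM2 rose 1.59-fold with NCS under MI-1061 and 2.04-fold under MD-224, a difference of -0.36 (95% interval -0.86 to 0.14, limma adjusted p = 0.24).

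**Figure D4:**
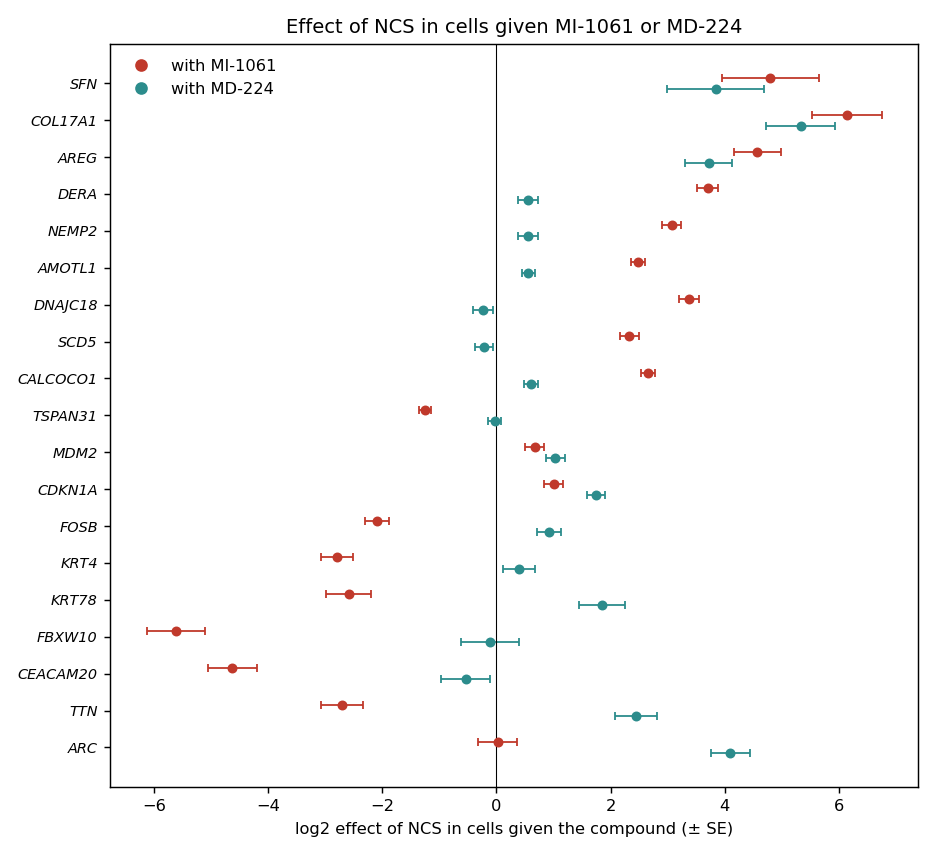
Log2 effect of NCS in cells given MI-1061 and in cells given MD-224 for 19 genes, with standard errors from the limma fit. DERA, NEMP2 and AMOTL1 rise with both compounds, by 0.55 to 0.56 with MD-224 and by more with MI-1061; DNAJC18 and SCD5 rise with MI-1061 and did not pass the test with MD-224, and SFN, COL17A1 and AREG rise with both.

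Of genes with a RefSeq span, 95.7% of positive and 88% of negative genes were protein coding, against 89.4% of all tested genes, and the median gene span was 32.4 kb and 24.8 kb against 27.3 kb. Uncalled genes were 87.1% protein coding. The classes differ in level, and below the median level the order of the spans turned, with 23.0 kb for positive and 24.7 kb for negative genes, against 37.2 kb and 25.3 kb above it. These values carry no test.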

How the data were processed

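Poly(A)-enriched RNA of SJSA-1 cells was sequenced in 18 libraries, grouped by the treatments in their titles. One label writes the inhibitor with other digits (MI-1016), and the titles were followed. The deposited values (unit: signal) are reads per gene over a library's size factor, as the authors made them. Tools named in the submitters' processing notes, with no role given, are DESeq2 2.11.40.6, featureCounts 1.6.3 and HISAT2 2.0.5.2, on build GRCh38. Every value was a whole number of reads (tolerance 0.01 reads, 100% of values in all 18 libraries), with size factors of 0.651 to 1.65, so count tests could be added as alternatives. Depth of the full libraries is not known, since genes were selected.

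Values were used as log2(value + 1) for genes that reached 10 in 3 or more libraries, in limma 3.58.1 (R 4.3.3, trended variance, all 6 groups in 1 fit, two-sided), with Benjamini-Hochberg adjustment over 3073 genes. Folds are limma estimates on this scale taken out of log2, and understate changes of low genes. Values in parentheses after gene names are log2 interactions unless stated otherwise. The test was tried on simulated data first. Alternatives were other pseudocounts, filters and scalings, a robust fit, the 4 compared groups only, a replicate block, leaving out libraries, and, added after seeing the data, edgeR 4.0.16 and DESeq2 1.42.0 on the recovered reads and leaving out libraries with MD-224.

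The members and the 24 gene lists were chosen with earlier results of these data known. Named genes were the 10 largest and 5 smallest-p interactions in each direction (mean of at least 50, adjusted p under 0.05, current symbol), up to 4 smallest-p members of each list, MDM2, CDKN1A, ISG15, and the 5 smallest p in each direction for the difference from MD-224. Further members are named where they make up a list's count. Some genes are not reported here. Of the 3074 names 2795 matched a RefSeq symbol and 203 a synonym of 1 gene. Promoters are the 250 bases before RefSeq starts (GRCh38.p14), matched for 2274 tested genes. Python 3.11.15 and matplotlib 3.10.9 made the figures.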

Additional observations from a re-analysis of the deposited data

Results flagged for a closer look

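The response to MI-1061 differed with and without NCS, by a test of the interaction itself, in 721 genes in the positive and 639 in the negative direction. The largest positive log2 differences were those of SFN (4.87), DERA (4.41), NEMP2 (4.37), TMEM40 (4.24), DRAXIN (3.95), KCTD12 (3.75), PLCXD2 (3.67), AREG (3.67), COL17A1 (3.66) and TMEM255A (3.65), and the smallest p values added AMOTL1 (2.98), DNAJC18 (3.13) and SDC1 (2.75). SDC1, a cell surface proteoglycan, changed 1.3-fold with MI-1061 without NCS and 8.73-fold after it. The largest negative differences were those of CEACAM20 (-6.94), FBXW10 (-6.58), ASB5 (-5.94), ZNF366 (-5.70), KRT78 (-5.22), GAL3ST1 (-5.12), TTN (-4.96), KRT4 (-4.94), LGR6 (-4.85) and SEZ6 (-4.69), and the smallest p values added TSPAN31 (-2.22), MAP1LC3B (-1.61) and CYP26B1 (-4.33).

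The interaction with NCS differed between MI-1061 and MD-224, again by a test of the difference, in 1196 genes. The log2 difference was 3.62 for DNAJC18, 3.15 for DERA, 2.06 for CALCOCO1, 2.55 for SCD5 and 1.92 for AMOTL1. It was -3.01 for FOSB, -5.16 for TTN, -4.08 for ARC and -1.22 for TSPAN31. Single outlying libraries within groups of 3 were not tested.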

How the results depend on the processing

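The listing fixes the sign of NCS with MI-1061 against DMSO, so counts over it are conditional. The counts of positive genes ranged from 365 to 744, of negative genes from 284 to 665 and of genes that differed between the compounds from 356 to 1272 when libraries were left out, each lowest without replicate 3 of every group. In that setting 2 libraries per group were left. The median interaction was -0.231 with median scaling. With TMM scaling 841 genes lay above both expectations, 48 above both singles and below both expectations, 2132 below the higher single agent and 52 between the expectations. Over genes listed in this way, TMM scaling lowers the combined group relative to DMSO by construction. EdgeR called 727 positive and 636 negative genes and DESeq2 781 and 689, of which 1324 and 1348 were among the 1360 calls. No call changed sign in any alternative. Named genes kept their side of the threshold in 3603 of their alternative values, lost it in 94 and gained it in 42. Counts of calls in gene lists moved by over 1.5 times in 129 alternative values and stayed within that in 1407. Like-numbered libraries had residual correlations across genes of 0.0197 to 0.399 (14 of 18 over 0.1), and in 32 of 36 comparisons a library correlated best with its own number in another group. This is a hint from the data and not the design, and the numbers were not taken as pairs. With a replicate block the calls were 870 positive and 757 negative, and 1359 of the 1360 calls were among them. The block also gave AEN a call (limma adjusted p = 0.0297), 8 negative and 1 positive immediate early genes and 5 positive secreted protease genes. Genes of low level are limited by counting error.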
